A study of Mus musculus with 17 samples.

Results

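Gene expression in bone marrow cells of C57BL/6 mice that had received a marrow graft was compared between recipients of Pig-a knock-out marrow and recipients of wild-type marrow. The comparison rests on 7 Affymetrix arrays of 17 in the series, chosen by sample title, with 4 arrays of GPI-negative cells from recipients of knock-out marrow (knock-out grafts below) and 3 arrays of GPI-positive cells from recipients of wild-type marrow (wild-type grafts). Donor marrow of Pig-a knock-out mice was kept for 30 minutes at 37 degrees Celsius with 10 nM of the toxin aerolysin, which binds GPI-anchored proteins and kills the cells that carry them, and was injected by vein into C57BL/6 mice given 9 Gy of whole-body irradiation. The labels give aerolysin and irradiation for the knock-out grafts and are silent on how the recipients of wild-type marrow were prepared. Marrow of femurs and tibias was stained with fluorescein-coupled antibodies to CD24, CD48 and Gr-1 and sorted. Untransplanted wild-type C57BL/6 mice (GPI-positive cells, 4 arrays of the same batch) and GPI-negative and GPI-positive cells of knock-out mice (3 arrays each, another batch) are used for reference. The recipient groups differ in donor genotype, in the treatment of the graft and in the sorted fraction, and may differ in irradiation, so these cannot be told apart. The sources used here do not give the deleted part of the gene, how the deletion was made, the ages of the mice, the time after grafting or how cells with little of the sort antigens were placed. The titles speak of biological replicates without naming animals, so the p-values measure the spread between arrays.

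Piga encodes the catalytic subunit of the enzyme that starts the making of the glycosylphosphatidylinositol (GPI) anchor, a glycolipid that holds a class of proteins on the outer face of the cell membrane. Blood cells that descend from a stem cell without Piga carry none of these proteins, as in paroxysmal nocturnal hemoglobinuria. Marrow holds the precursors of red cells, granulocytes, monocytes and platelets, developing B cells, plasma cells, macrophages, and smaller numbers of T cells, natural killer (NK) cells, dendritic cells and basophils. In such bulk samples, fewer cells of a type and less RNA per cell cannot be told apart.

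Values below are log2 levels, made from the log10-like values of the authors' deposited table. They were normalized within the batch and flatten towards 0, so folds of dim genes are approximate. Differences are given as knock-out grafts minus wild-type grafts, with the standard error (SE) of a limma fit and a p adjusted by Benjamini-Hochberg over 14245 genes. A gene is called when the adjusted p is below 0.05, and "rose" and "fell" are used of called genes only.

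Piga was the gene with the largest difference of all. Its level was 0.16, 0.13, 0.77 and 0.39 on the 4 knock-out graft arrays and 3.97, 4.10 and 3.87 on the 3 wild-type graft arrays. The groups lay far apart, and the knock-out grafts sat at the floor of the scale. Piga fell by 3.62 ± 0.15 (SE), at least 12.3-fold (adjusted p = 1.77e-12). The untransplanted wild-type mice had 4.05 ± 0.10 (SD, n = 4), and a dimmer Piga probe set differed by -0.71. Of the antigens used for sorting, Cd24a, a GPI-anchored glycoprotein of immature blood cells, measured 10.06, 10.31, 10.35 and 10.42 in knock-out grafts against 10.75, 10.98 and 11.09 in wild-type grafts. The ranges did not overlap, and Cd24a fell by 0.65 ± 0.14 (adjusted p = 0.0041). Cd48, a GPI-anchored adhesion receptor of leukocytes, rose from 5.76 ± 0.18 (SD, n = 3) to 6.47 ± 0.17 (n = 4), with an adjusted p of 0.00142. The transcripts of both antigens were thus present in the GPI-negative cells. Xist was bright in both groups, at 7.40 to 7.63 in knock-out and 7.51 to 7.85 in wild-type grafts, while the Y-linked genes Eif2s3y, Kdm5d and Uty were dim on all 7 arrays, with the highest values at 0.89, 0.82 and 1.12.

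Of the 14245 genes tested, 1053 (7.39%) were called. There were 562 genes (3.95%) that rose and 491 (3.45%) that fell in knock-out grafts. A change of at least 2-fold was seen for 101 of the genes that rose and 41 of those that fell, and the median size of the called differences was 0.62 on the log2 scale. The 4 and the 3 arrays did not overlap for 967 of the called genes, and for 15.5% of all genes. Leaving out wild-type graft replicate 2 left 680 called genes (299 lower), and leaving out replicate 3 left 684 (285 lower). Without knock-out graft replicate 2, 323 genes were called lower. The largest rises belonged to genes of T cells, NK cells and plasmacytoid dendritic cells, led by Ccl5 (2.91), Trbv1 (2.77), Ms4a4b (2.72), Klk1 (2.72) and Gimap4 (2.43). After Piga, the 12 largest falls among brighter genes included Vcam1 (-1.94), the granulocyte gene Fcnb (-1.56) and the red cell genes Ermap (-1.52), Rhd (-1.46), Aqp1 (-1.44) and Car1 (-1.43).

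**Figure D1:**
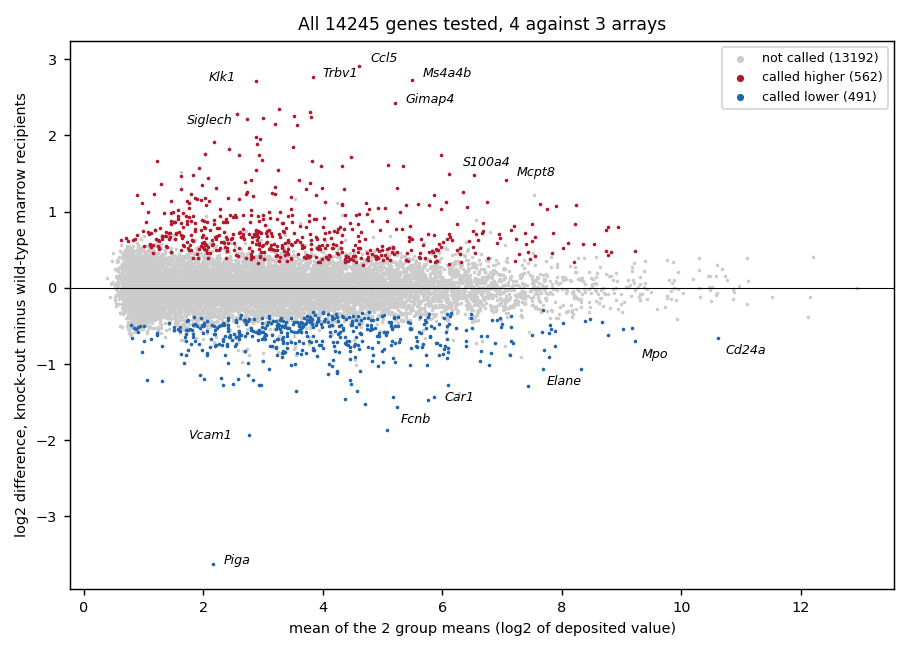
Log2 difference between recipients of knock-out marrow (4 arrays) and of wild-type marrow (3 arrays) for each gene tested, against the mean of the 2 group means on the log2 scale, with called genes coloured. The 562 genes that rose reach 2.91 (Ccl5), and Piga stands alone at -3.62 among the 491 that fell.

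**Figure D2:**
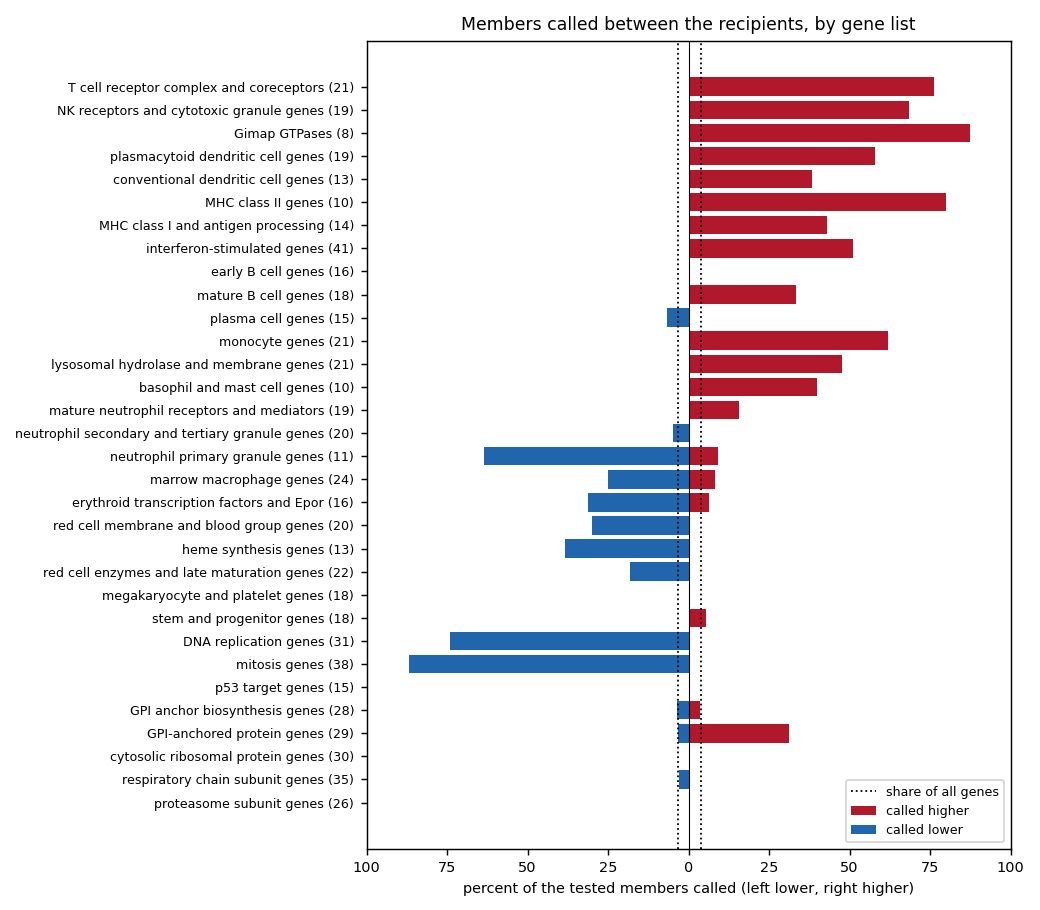
Percent of the tested members of 32 gene lists that were called higher (right, red) or lower (left, blue) in knock-out grafts, with the number tested in brackets; the dotted lines mark 3.95% and 3.45%, the shares of all genes. Lymphocyte, MHC class II and monocyte lists extend to the right, and the mitosis, DNA replication and primary granule lists extend to the left.

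T cell genes were higher in all 4 knock-out grafts. The list of the T cell receptor complex and its coreceptors had 21 tested members, of which 16 rose and none fell, with a median difference of 1.18 against -0.01 over all genes. Trbv1, a segment of the receptor's beta chain, measured 6.04, 5.82, 4.30 and 4.74 in knock-out grafts and 2.57, 2.29 and 2.52 in wild-type grafts. Its 6.80-fold rise (2.77 ± 0.28, adjusted p = 2.34e-06) thus differed in size between arrays, with replicates 1 and 2 higher than replicates 3 and 4. A second probe set of Trbv1 differed by 0.35. The signalling chains of the receptor moved alike, Cd3d by 2.30 ± 0.27 (adjusted p = 1.44e-05), Cd3g by 2.22 ± 0.22 (adjusted p = 1.76e-06) and Cd3e by 1.44 ± 0.26 (adjusted p = 0.0012). Both chains of the CD8 coreceptor, which reads MHC class I, rose, Cd8b1 by 2.28 ± 0.28 and Cd8a by 1.91 ± 0.23. Cd4, the coreceptor for MHC class II, differed by 0.41 with an adjusted p of 0.193, and was dim on all 7 arrays (0.69 to 1.71). The mean over the 21 members was 3.23, 3.08, 2.36 and 2.51 on the knock-out graft arrays and 1.44 to 1.75 on the wild-type graft arrays. Untransplanted wild-type mice lay at 1.65 to 1.99, next to the wild-type grafts.

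Of 16 T and NK cell transcription factors, 5 rose and none fell (median 0.28). Bcl11b, which fixes T cell identity, rose by 1.48 ± 0.28 (adjusted p = 0.00182), and the cytotoxic regulators Eomes and Tbx21 rose by 0.99 ± 0.18 and 0.84 ± 0.15. Ikzf2 rose by 1.02 ± 0.17. NK receptors and cytotoxic granule genes rose in 13 of 19 cases, with none falling and a median of 1.00. Ccl5, a chemokine of effector lymphocytes, had the largest rise of all genes tested, 7.54-fold. Its level was 6.89, 6.37, 5.06 and 5.96 in knock-out grafts and 2.92, 2.87 and 3.67 in wild-type grafts, without overlap (2.91 ± 0.28, adjusted p = 1.13e-06). Klrd1, the CD94 chain of NK receptors, measured 5.51, 4.97, 4.10 and 3.96 against 2.51, 2.47 and 2.50. It too was highest on the first knock-out graft array, and it rose by 2.14 ± 0.24 (adjusted p = 6.46e-06). Its partner Klrc1 rose by 1.82 ± 0.29, Il2rb, the signalling chain of the interleukin-2 and interleukin-15 receptors, by 1.75 ± 0.16, and the lymphocyte protease gene Ctsw by 1.97 ± 0.19. Of the 8 Gimap genes, small GTPases of lymphocytes, 7 rose (median 1.39). Gimap4 was brightest, at 6.06 to 6.96 in knock-out grafts and 3.75 to 4.16 in wild-type grafts, a 5.38-fold difference (2.43 ± 0.22, adjusted p = 8.24e-07). Bcl2, the survival factor that lymphocytes depend on, rose by 1.41 ± 0.17 (adjusted p = 1.66e-05) as the largest change among 16 tested members of its family.

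**Figure D3:**
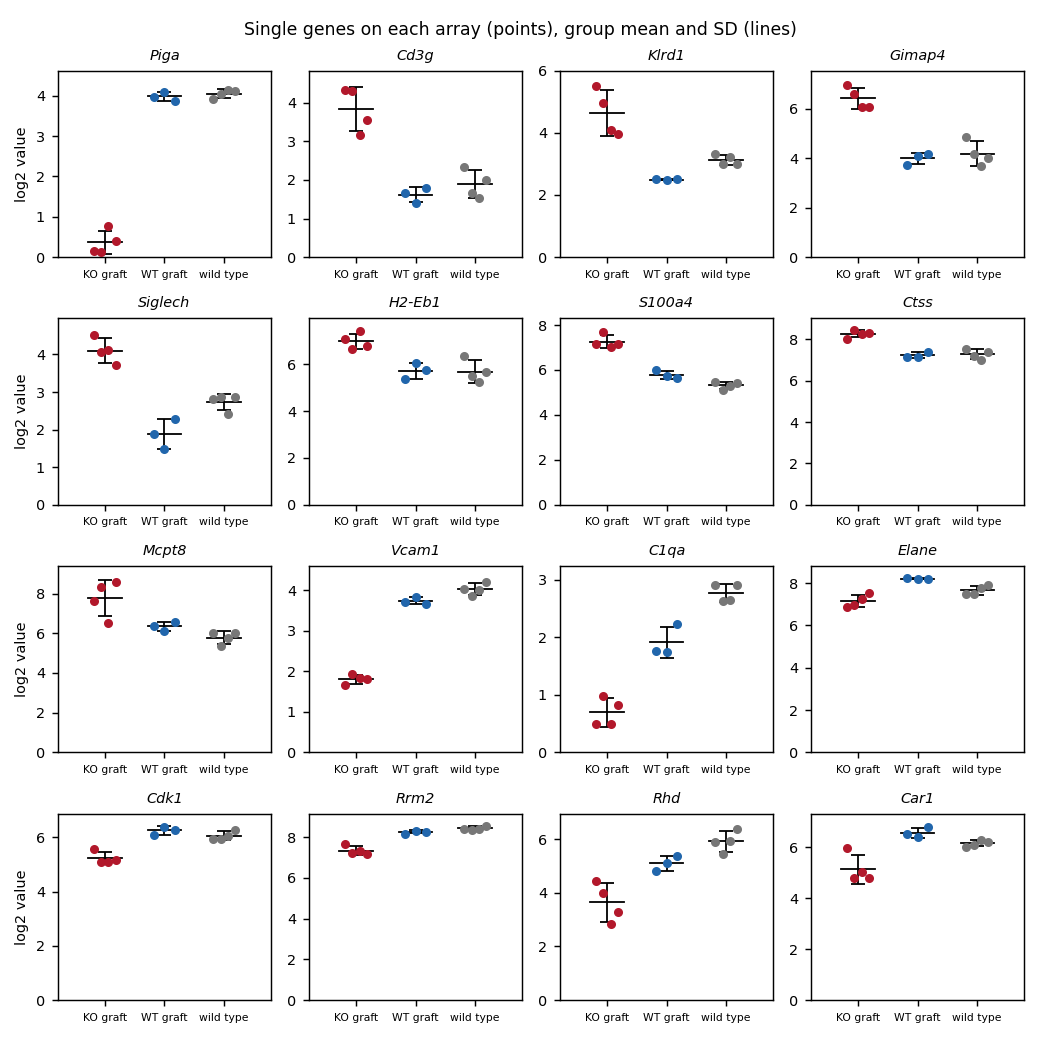
Log2 values of 16 genes on each array (points) of recipients of knock-out marrow (KO graft, n = 4), recipients of wild-type marrow (WT graft, n = 3) and untransplanted wild-type mice (n = 4), with the mean and SD as black lines. Between the recipients each panel shows no overlap except Mcpt8, whose lowest knock-out graft value is 6.53 and highest wild-type graft value 6.57.

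Dendritic cell genes were higher as well. Of 19 genes of plasmacytoid dendritic cells, the main makers of type I interferon, 11 rose and none fell (median 0.57). Siglech, a surface lectin of these cells, measured 4.53, 4.07, 4.11 and 3.71 in knock-out grafts and 1.89, 1.48 and 2.28 in wild-type grafts. The untransplanted mice lay between, at 2.74 ± 0.22 (SD, n = 4). The rise between the recipients was 2.23 ± 0.19 (adjusted p = 3.4e-07), and wild-type grafts were lower than untransplanted mice by 0.86 ± 0.19 (adjusted p = 0.0315). Klk1, whose transcript marks plasmacytoid cells in mouse marrow, rose 6.57-fold (2.72 ± 0.26, adjusted p = 1.13e-06). One of its 3 other probe sets differed by -0.25, the others by 2.23 and 2.46. The homing receptor Ccr9 rose by 1.95 ± 0.22, with its other probe sets at 0.70, 0.81 and 0.17, and Cox6a2 rose by 1.55 ± 0.18. Among 13 genes of conventional dendritic cells, 5 rose and none fell (median 0.39), with Clec10a at 1.26 ± 0.13, Ccr7 at 0.92 ± 0.14, Cd209a at 0.91 ± 0.14 and Itgax, the CD11c integrin, at 0.86 ± 0.11. The fifth, Cd83 (0.76 ± 0.17, adjusted p = 0.00752), had an adjusted p of 0.0508 without wild-type graft replicate 3.

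MHC class II genes, which present peptides to CD4 T cells, rose in 8 of 10 tested cases, and none fell (median 0.93). H2-Eb1, a beta chain, measured 7.07, 6.66, 7.40 and 6.76 in knock-out grafts and 5.35, 6.04 and 5.75 in wild-type grafts. All 4 values of the knock-out grafts exceeded the others, for a 2.39-fold rise (1.26 ± 0.21, adjusted p = 0.000456). The alpha chain gene H2-Aa rose by 1.10 ± 0.17, its partner H2-Ab1 by 1.08 ± 0.19, and H2-DMa, which loads peptides, by 1.04 ± 0.17. The transactivator Ciita differed by 0.10. The promoters of H2-Eb1 and H2-Aa are shown as those of called members that carry the Y box, a CCAAT-type element of MHC class II promoters. The stretches are the 100 bases in RefSeq (GRCm38.p6) around the element upstream of the transcription start, at chr17:34305759-34305858, plus strand, and chr17:34287824-34287923, minus strand, with matches to the letters CTGATTGG on either strand in capitals.
H2-Eb1: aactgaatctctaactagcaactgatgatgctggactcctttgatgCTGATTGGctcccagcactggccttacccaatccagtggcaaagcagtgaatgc
H2-Aa: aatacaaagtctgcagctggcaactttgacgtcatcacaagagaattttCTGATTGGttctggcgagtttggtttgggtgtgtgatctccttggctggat
In these genes the match starts 62 and 51 bases before the start site. Of the 7 tested members with a promoter in the RefSeq table, 4 (57.1%) hold this motif on either strand in the 300 bases from 250 before to 50 after the start, against 6.12% of 11464 tested genes with a promoter. The motif was present in 3 of 6 called members and in the 1 uncalled member with a promoter. Among MHC class I and antigen processing genes, 6 of 14 rose and none fell (median 0.34), including H2-K1, at 8.96 to 9.21 in knock-out and 8.49 to 8.68 in wild-type grafts (0.47 ± 0.11, adjusted p = 0.00803). Nlrc5, the transactivator of class I genes, rose by 0.95 ± 0.14 (adjusted p = 0.000111). Without wild-type graft replicate 2, and with a replicate block, 3 of the 14 were called.

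Interferon-stimulated genes rose in 21 of 41 tested cases, and none fell (median 0.42). Bst2, which tethers budding virions and also marks plasmacytoid cells, measured 5.14, 4.80, 4.52 and 4.64 in knock-out grafts and 3.15, 3.01 and 3.37 in wild-type grafts. It stood well apart, with a 3.02-fold rise (1.60 ± 0.15, adjusted p = 8.98e-07), and Zbp1, a sensor of nucleic acids, rose by 0.73 ± 0.17 (adjusted p = 0.00816). The mean over the list was 4.09 to 4.42 in knock-out grafts, 3.77 to 3.87 in wild-type grafts and 4.04 to 4.38 in untransplanted mice, so the wild-type grafts were the low group. The difference against untransplanted mice itself was called for Oasl2, an antiviral gene (-1.07, adjusted p = 0.00869). The count of 21 was sensitive to single arrays, at 9 without wild-type graft replicate 2, 10 without replicate 3, 13 without replicate 1, 11 without knock-out graft replicate 2, 13 without replicate 4 and 12 with a replicate block. The lists of plasmacytoid cells (list means of 4.08 to 4.44 against 3.43 to 3.46) and monocytes (5.44 to 5.89 against 4.83 to 5.17) were higher on the same arrays, and their part in the interferon-stimulated genes was not tested. The promoter of Bst2 is shown for its pair of overlapping matches to the interferon-stimulated response element (GAAA, any 2 bases, then GAAA again, on either strand), from RefSeq (GRCm38.p6) at chr8:71537543-71537642, minus strand, with the matches in capitals.
Bst2: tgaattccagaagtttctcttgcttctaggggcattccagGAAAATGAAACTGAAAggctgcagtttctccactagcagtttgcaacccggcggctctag
Of the 31 tested members with a promoter, 17 (54.8%) hold a match, among them 9 of 14 called and 8 of 17 uncalled members. The share over all tested genes was 3.68%.

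The B lineage was followed by stage. None of 16 early B cell genes was called (median -0.22), where 7.39% of all genes were called. Without knock-out graft replicate 1, 1 was called lower. Ebf1, a factor that commits cells to the lineage, measured 4.13, 3.67, 4.23 and 4.19 against 4.17, 4.53 and 4.67 (-0.40 ± 0.16, adjusted p = 0.166), and Vpreb3 differed by -0.42 ± 0.18 (adjusted p = 0.178). Of 18 mature B cell genes, 6 rose and none fell (median 0.25), although 2 were called lower without knock-out graft replicate 3 and 1 when all probe sets of each gene were averaged. The list mean was 4.87 to 5.59 in knock-out grafts and 4.67 to 5.22 in wild-type grafts, so the recipient groups overlapped. Untransplanted mice lay at 5.10 to 5.45. Fcer2a, the CD23 receptor of recirculating B cells, measured 3.41, 3.19, 3.90 and 3.09 in knock-out and 1.85 to 2.17 in wild-type grafts, without overlap. Its 2.62-fold rise (1.39 ± 0.15, adjusted p = 5.48e-06) was the largest of the list. Against untransplanted mice, Fcer2a was lower in wild-type grafts by 0.64 (adjusted p = 0.0481) and higher in knock-out grafts by 0.75 (adjusted p = 0.000969). Cr2, the complement receptor of mature B cells, rose by 0.76 ± 0.13, Cxcr5, the follicle homing receptor, by 0.86 ± 0.19, and Ltb, a lymphotoxin chain, by 0.74 ± 0.16. Plasma cell genes had 1 of 15 called, near the 7.39% of all genes. The number called lower was 3 without knock-out graft replicate 3, 2 without replicate 1, and 0 without knock-out graft replicate 2 or wild-type graft replicate 3. The called gene was Fkbp11, which fell by 0.47 ± 0.13 (adjusted p = 0.0262), while its other probe set differed by 0.59. Its call was lost without knock-out graft replicate 2 (adjusted p = 0.0988) or wild-type graft replicate 1 (0.107) or 3 (0.0981).

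Monocyte genes rose in 13 of 21 tested cases, and none fell (median 0.74). S100a4, a calcium-binding protein of motile myeloid cells, measured 7.17, 7.70, 7.04 and 7.15 in knock-out grafts and 5.98, 5.73 and 5.65 in wild-type grafts. The gap between the groups exceeded their ranges, for a 2.79-fold rise (1.48 ± 0.15, adjusted p = 1.58e-06). Ccr2, by which monocytes leave the marrow, measured 6.28, 6.72, 6.13 and 6.89 against 5.66, 5.23 and 5.51 (1.03 ± 0.20, adjusted p = 0.00239). The Fc receptor gene Fcgr1 rose by 1.14 ± 0.18, Mpeg1, a pore-forming protein of phagocytes, by 1.07 ± 0.16, and Cd14, the GPI-anchored receptor for lipopolysaccharide, by 0.95 ± 0.16. Lysosomal genes rose in 10 of 21 cases, and none fell (median 0.40). The protease genes Ctss and Ctsh rose by 1.04 ± 0.12 and 0.71 ± 0.11, Psap, which makes sphingolipid activators, by 0.79 ± 0.16, and Ctsl by 1.60 ± 0.15, although a second probe set of Ctsl differed by -0.03. The chemokine genes Ccl9 and Ccl3, both made by myeloid cells, rose by 1.13 ± 0.18 and 1.20 ± 0.25 among 5 of 23 inflammatory cytokine and chemokine genes that rose. That count was 8 without wild-type graft replicate 1.

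Basophil and mast cell genes rose in 4 of 10 cases, and none fell (median 0.63), unevenly over the knock-out grafts. Mcpt8, a basophil protease, measured 7.64, 8.35, 6.53 and 8.57 in knock-out and 6.38, 6.11 and 6.57 in wild-type grafts. Replicate 3 lay within the range of the wild-type grafts and the others above it (1.42 ± 0.30, adjusted p = 0.00496). Cpa3, a carboxypeptidase of basophils and mast cells, rose by 1.03 ± 0.18 (adjusted p = 0.000694). The remaining calls, Fcer1a and Ms4a2, which encode chains of the IgE receptor, were lost without knock-out graft replicate 2 (adjusted p of 0.101 and 0.0891), knock-out graft replicate 4 (0.0978 and 0.0784), wild-type graft replicate 1 (0.0779 and 0.147) or wild-type graft replicate 2 (0.0709 and 0.0842), and Fcer1a also without wild-type graft replicate 3 (0.0773). Eosinophil genes lay in the other direction, with 2 of 7 falling (median -0.84). The list mean was 1.89 to 2.68 in knock-out grafts, 2.73 to 3.55 in wild-type grafts and 2.31 to 3.26 in untransplanted mice. The median difference of wild-type grafts from untransplanted mice was 0.83. Prg3, an eosinophil granule protein, fell by 1.18 ± 0.23 (adjusted p = 0.00235). Epx, the eosinophil peroxidase, fell by 1.27 ± 0.32 (adjusted p = 0.017), a call lost without wild-type graft replicate 2 (adjusted p = 0.118). Against untransplanted mice, Prg3 and Epx differed by -0.36 and -0.32 in knock-out grafts (adjusted p = 0.333 and 0.586). In wild-type grafts they differed by 0.83 and 0.96, also without a call (adjusted p = 0.0885 and 0.168).

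Neutrophil genes were grouped by the stage at which they are made. Of 11 tested primary granule genes, which promyelocytes express, 7 fell and 1 rose (median -0.56). Elane, neutrophil elastase, measured 6.86, 6.96, 7.24 and 7.53 in knock-out grafts and 8.24, 8.19 and 8.20 in wild-type grafts. The wild-type grafts were nearly equal and all above the knock-out grafts, a 2.09-fold fall (-1.06 ± 0.14, adjusted p = 4.56e-05). Mpo, myeloperoxidase, was among the brightest called genes, at 8.53 to 9.37 against 9.49 to 9.67 (-0.70 ± 0.15, adjusted p = 0.00452). Fcnb, a secreted lectin of granulocyte precursors, fell by 1.56 ± 0.21 (adjusted p = 5.2e-05), Ms4a3 by 0.92 ± 0.14 and Gfi1, a repressor needed for neutrophil development, by 0.80 ± 0.14. The member that rose was Ctsc, the protease that activates granule serine proteases, by 1.12 ± 0.17 (adjusted p = 0.000295). Its other probe sets differed by 0.38 and 0.13. Of 20 genes of secondary and tertiary granules, which later precursors express, 1 was called (median 0.00), where 7.39% of all genes were called. This gene, Olfm4, fell by 1.01 ± 0.24 (adjusted p = 0.012), and its adjusted p was 0.0869 without wild-type graft replicate 1. Of 19 receptors and mediators of mature neutrophils, 3 rose and none fell (median 0.41), a count that was 1 without knock-out graft replicate 2, 1 without wild-type graft replicate 2, 0 without wild-type graft replicate 3 and 5 without replicate 1 of either group.

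Marrow macrophage genes fell in 6 and rose in 2 of 24 tested cases (median -0.12). Vcam1, by which resident macrophages and stroma hold other cells, measured 1.65, 1.93, 1.83 and 1.80 in knock-out grafts and 3.72, 3.84 and 3.66 in wild-type grafts. Each group spanned less than 0.3 log2 units, and the 3.82-fold fall had the smallest adjusted p after Piga (-1.94 ± 0.11, adjusted p = 2.68e-10). Both other Vcam1 probe sets were lower, by 1.16 and 0.84. The 3 chains of complement C1q, made by tissue macrophages, fell together, C1qa by 1.22 ± 0.16, C1qb by 1.14 ± 0.14 and C1qc by 1.21 ± 0.17. C1qa measured 0.49, 0.98, 0.49 and 0.82 against 1.77, 1.75 and 2.23, with the knock-out grafts near the floor (percentile 22.2 of their arrays). Cd5l, a secreted macrophage protein, fell by 0.88 ± 0.16. The genes called against the list were Trem2 (0.68 ± 0.18, adjusted p = 0.0228) and Lgmn (0.50 ± 0.15, adjusted p = 0.0474), and both lost the call when wild-type graft replicate 1 was left out, at 0.0975 and 0.195. The list mean was 1.91 to 2.09 in knock-out grafts, 2.16 to 2.36 in wild-type grafts and 2.43 to 2.66 in untransplanted mice.

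In 4 lists of red cell genes, 20 of 71 tested members fell in knock-out grafts, and the list means were lowest on replicates 3 and 4. Wild-type grafts themselves lay below untransplanted mice in these lists. Their median differences from those mice were -0.44 (membrane and blood groups), -0.26 (transcription factors and Epor), -0.50 (heme synthesis) and -0.60 (enzymes and late maturation). Of 20 tested genes of the red cell membrane and blood groups, 6 fell and none rose (median -0.65). Without knock-out graft replicate 1 the count was 10. Rhd, a blood group protein, measured 4.46, 4.01, 2.84 and 3.28 in knock-out grafts and 4.82, 5.12 and 5.38 in wild-type grafts. All 4 knock-out graft values were lower, by 1.46 ± 0.32 on average (adjusted p = 0.00687), and the untransplanted mice were at 5.92 ± 0.38 (SD, n = 4). Ermap, another blood group carrier, fell by 1.52 ± 0.30 (adjusted p = 0.00246), the water channel Aqp1 by 1.44 ± 0.31 and Rhag by 1.26 ± 0.26. Of 16 erythroid transcription factors and Epor, 5 fell and 1 rose (median -0.30), and 3 fell without knock-out graft replicate 3, wild-type graft replicate 2 or wild-type graft replicate 3. Klf1, the activator of globin and red cell membrane genes, measured 4.95, 4.03, 3.44 and 3.17 against 5.04, 5.20 and 5.50. The first knock-out graft array nearly reached the wild-type grafts, and the mean difference was -1.35 ± 0.30 (adjusted p = 0.00721). Tal1 and the GATA1 partner Zfpm1 fell by 0.90 ± 0.19 and 0.79 ± 0.16, while Klf3, a repressor, rose by 0.62 ± 0.12 (adjusted p = 0.00269).

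Heme synthesis genes fell in 5 of 13 cases (median -0.42), a count that was 1 without wild-type graft replicate 3, 2 without replicate 2, 3 without replicate 1, 3 without knock-out graft replicate 2 and 3 with a replicate block. Abcb6, a porphyrin transporter, fell by 0.83 ± 0.17 (adjusted p = 0.00349). Red cell enzymes and late maturation genes fell in 4 of 22 cases (median -0.36), or in 2 without knock-out graft replicate 4, 2 without wild-type graft replicate 2 and 1 without replicate 3. Car1, the carbonic anhydrase of red cell precursors, fell by 1.43 ± 0.20 (adjusted p = 0.000106), at 5.97, 4.79, 5.02 and 4.77 against 6.51, 6.41 and 6.79. The 4 lists of red cell genes did not all separate the groups by array. The mean over the red cell enzymes was 5.37, 5.49, 4.54 and 4.93 in knock-out grafts and 5.26, 5.62 and 5.69 in wild-type grafts, so replicates 1 and 2 overlapped the wild-type grafts. Iron genes showed less, and the alpha globin probe sets were dim. None of the 3 tested globin and chaperone genes of 10 listed was called, and their mean was 2.18 ± 0.54 (SD, n = 4) in knock-out and 2.18 ± 0.22 (n = 3) in wild-type grafts. The alpha globin genes Hba-a1 and Hba-a2 are near-identical copies that probes may not tell apart. They differed by -0.24 ± 0.20 (adjusted p = 0.565) and 0.29 ± 0.13 (adjusted p = 0.217). Hba-a1 averaged 0.86 in knock-out and 1.10 in wild-type grafts (percentiles 30.5 and 42.5 of the arrays), near the floor. Hba-a2 averaged 1.83 and 1.53, so a change of alpha globin may be missed. Of 14 iron uptake and storage genes, 2 fell and none rose (median -0.17). They were the transferrin receptors Tfrc (-0.70 ± 0.20, adjusted p = 0.0304) and Tfr2 (-0.63 ± 0.19, adjusted p = 0.0452), and none of the 14 was called without knock-out graft replicate 2, 3 or 4 or wild-type graft replicate 2 or 3, and 1 without wild-type graft replicate 1. The 18 tested platelet genes had none called, against 7.39% of all genes, and a median of -0.09. The promoters of Rhd and Epor, the receptor for erythropoietin, are shown because they are the called red cell genes with the letters AGATAAG, a form of the GATA motif. They are taken from RefSeq (GRCm38.p6), at chr4:134864436-134864535, plus strand, and chr9:21963578-21963677, minus strand, with the match on either strand in capitals.
Rhd: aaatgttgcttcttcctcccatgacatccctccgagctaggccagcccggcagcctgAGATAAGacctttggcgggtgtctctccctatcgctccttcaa
Epor: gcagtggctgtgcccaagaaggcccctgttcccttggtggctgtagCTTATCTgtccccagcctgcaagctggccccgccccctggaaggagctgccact
Of 59 tested red cell genes with a promoter, 8 (13.6%) hold this motif in the 300-base window, 2 of 19 called and 6 of 40 uncalled, against 2.55% of all tested genes. Epor fell by 0.69 ± 0.18 (adjusted p = 0.0188), and the call was lost without knock-out graft replicate 3 (adjusted p = 0.0593), wild-type graft replicate 2 (0.089) or wild-type graft replicate 3 (0.101).

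Genes of cell division were lower in knock-out grafts. Of 38 tested mitosis genes, 33 fell and none rose (median -0.76), the largest share in the negative direction among the lists. Cdk1, the kinase that drives entry into mitosis, measured 5.57, 5.10, 5.11 and 5.18 in knock-out grafts and 6.08, 6.40 and 6.29 in wild-type grafts. The ranges did not meet, and Cdk1 fell 2.03-fold (-1.02 ± 0.16, adjusted p = 0.000382). Nek2, a centrosome kinase, fell by 1.13 ± 0.23, Cenpf by 1.12 ± 0.16 and the kinetochore gene Ndc80 by 0.91 ± 0.15, although 1 of the other probe sets of Cenpf differed by 0.16. Ube2c, which marks mitotic proteins for destruction, fell by 0.96 ± 0.22 (adjusted p = 0.00803, or 0.0603 without wild-type graft replicate 3). The list mean was 4.59 to 4.75 in knock-out grafts, 5.25 to 5.48 in wild-type grafts and 5.24 to 5.46 in untransplanted mice. Of 31 DNA replication genes, 23 fell and none rose (median -0.59), and 14 fell without knock-out graft replicate 2 or 10 without wild-type graft replicate 3. Rrm2, a subunit of the enzyme that makes deoxynucleotides, measured 7.68, 7.20, 7.30 and 7.17 against 8.17, 8.31 and 8.27. It fell by 0.91 ± 0.16 (adjusted p = 0.000778), the clamp loader Rfc4 by 0.88 ± 0.16 and the helicase subunit Mcm7 by 0.76 ± 0.14. The primary granule and red cell lists, whose genes belong to dividing precursors, were lower in the same samples, and their part in the fall of the division genes was not tested.

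Mitosis gene promoters often carry the cell cycle homology region, whose letters are TTTGAA. Those of Cdk1 and Ube2c are shown as the called and named members of largest difference that hold it, from RefSeq (GRCm38.p6) at chr10:69352913-69353012, minus strand, and chr2:164769829-164769928, plus strand, with matches on either strand in capitals.
Cdk1: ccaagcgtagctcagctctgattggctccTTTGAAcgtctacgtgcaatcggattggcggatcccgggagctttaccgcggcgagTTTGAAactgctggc
Ube2c: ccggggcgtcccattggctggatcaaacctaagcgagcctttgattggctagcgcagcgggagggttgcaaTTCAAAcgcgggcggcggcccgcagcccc
Of 34 tested mitosis genes with a promoter, 25 (73.5%) hold TTTGAA on either strand, against 14.6% of all tested genes, and 26 (76.5%) hold CCAAT, against 42.2%. The share with TTTGAA was 72.4% of the called and 80.0% of the uncalled members. Among 13 cell cycle inhibitors and quiescence genes, 3 rose and 2 fell (median 0.18), with 1 falling without knock-out graft replicate 2 or 3 and 0 without wild-type graft replicate 2 or 3. Klf2, a factor of resting lymphocytes, rose by 0.64 ± 0.11 (adjusted p = 0.000568) and Txnip by 0.59 ± 0.14 (adjusted p = 0.00885). None of 15 p53 target genes was called, against 7.39% of all genes, with a median of 0.16.

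More receptors and adhesion molecules of leukocytes rose than fell. Of 29 cytokine and growth factor receptors, 13 rose and 1, Epor, fell (median 0.42), and 7 rose without wild-type graft replicate 2. Il18r1, a receptor chain of T and NK cells and basophils, measured 5.05, 4.90, 4.18 and 4.51 against 3.15, 2.94 and 2.88. It rose 3.18-fold without overlap (1.67 ± 0.19, adjusted p = 1.25e-05), and Il6ra rose by 0.90 ± 0.19. Of 32 integrins and homing receptors, 13 rose and 1, Vcam1, fell (median 0.35). Cxcr3, a receptor of effector T cells, rose by 1.75 ± 0.22 and the gut homing integrin Itgb7 by 1.30 ± 0.15. Of 18 Toll-like receptors and adaptors, 5 rose (median 0.31), or 3 without knock-out graft replicate 2, 3 without wild-type graft replicate 2, 2 without replicate 3 and 3 with a replicate block. Tlr1, a partner of TLR2 in sensing lipopeptides, rose by 0.94 ± 0.14 (adjusted p = 0.00014).

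Immediate early genes, which respond within minutes to stimulation or handling, varied between arrays of a group. Of 27 tested, 5 rose and none fell (median 0.47), with 1 to 11 called when single arrays were left out. The count was 11 without wild-type graft replicate 1, 1 without replicate 2, 2 without replicate 3, 9 without knock-out graft replicate 1, 3 without replicate 2 and 2 without replicate 3. Klf2, also in this list, kept its call in each case. Fos, named after its values were seen, measured 8.22, 7.82, 7.70 and 8.83 in knock-out grafts and 8.24, 6.47 and 6.07 in wild-type grafts. The first wild-type graft array lay within the range of the knock-out grafts, and the difference of 1.22 ± 0.40 was not called (adjusted p = 0.0724). Of 11 heat shock genes, 1 was called, where 7.39% of all genes were called. Hspa1b, the inducible HSP70, measured 1.88, 3.71, 6.07 and 6.12 against 2.33, 2.13 and 1.85, so replicate 1 was low and replicates 3 and 4 high. Its difference of 2.34 ± 0.71 had an adjusted p of 0.0492 and lost the call without any one of the arrays other than knock-out graft replicate 1, with values up to 0.173 (without knock-out graft replicate 4).

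Calls in the anchor pathway were near the share of all genes, 7.39%. Of 28 tested GPI biosynthesis genes, 1 fell, which was Piga, and 1 rose, with a median of 0.04. Without knock-out graft replicate 1 or 3, 2 fell. Pgap1, which remodels the anchor's inositol, rose by 0.86 ± 0.14 (adjusted p = 0.000586), while its other probe set differed by -0.19. Of 29 genes for GPI-anchored proteins, 9 rose and 1, Cd24a, fell (median 0.15), or 2 fell without knock-out graft replicate 1 or wild-type graft replicate 3. Thy1, the GPI-anchored antigen of T cells, measured 4.98, 4.75, 3.37 and 4.02 in knock-out and 2.12, 1.87 and 2.39 in wild-type grafts. It rose by 2.16 ± 0.25 (adjusted p = 8.87e-06) without overlap, highest on replicates 1 and 2 like the T cell genes. The others that rose included Bst2, Cd14, Cd48 and the NK receptor Cd160 (0.90 ± 0.21). Housekeeping lists ranged from no calls to 3 of 16. No gene was called among 30 ribosomal proteins (median -0.01), 24 ribosome biogenesis genes (-0.06), 26 proteasome subunits (-0.11), 18 cholesterol synthesis genes (0.05) and 16 antioxidant genes (-0.08), and 1 of 35 respiratory chain subunits fell (-0.14). That gene, Ndufs1 of complex I, had an adjusted p of 0.0493, and of 0.0612 to 0.167 without any one of the arrays other than knock-out graft replicate 3. Without knock-out graft replicate 1, 5 respiratory chain and 4 ribosome biogenesis genes were called lower and 2 cholesterol synthesis genes higher. Of 16 glycolysis genes, 2 rose and 1 fell (median 0.01), where 7.39% of all genes were called. Slc2a1, the glucose transporter GLUT1, measured 3.99, 4.47, 4.39 and 4.08 in knock-out grafts and 3.66, 3.45 and 3.66 in wild-type grafts, without overlap (0.64 ± 0.12, adjusted p = 0.0015). Pfkp, the platelet-type phosphofructokinase, rose by 0.52 ± 0.10 (adjusted p = 0.00278). The lactate transporter Slc16a1 fell by 0.76 ± 0.19 (adjusted p = 0.0134), with an adjusted p of 0.055 without knock-out graft replicate 2 and 0.0879 without wild-type graft replicate 3. Asns, asparagine synthetase, fell by 1.10 ± 0.14 (adjusted p = 3.4e-05) as the called gene of 20 in the list of endoplasmic reticulum chaperones and stress genes, where 2 fell without knock-out graft replicate 3 or 4.

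The difference between the recipients was set against that between GPI-negative and GPI-positive cells of untransplanted knock-out mice, which shares no array with it. The differences of the 2 comparisons themselves differed for 2708 genes (19.0%), 1419 of them more positive between the recipients and 1289 more negative. Of the genes called between the recipients, 563 (53.5%) were also called in the knock-out mice, where 4206 of all genes (29.5%) were called, so that they made up 13.4% of that list. The direction was the same for 497 of them and opposite for 66. Over all 14245 genes, which are not independent replicates, the differences of the comparisons had a Pearson r of 0.305 and a Spearman rho of 0.101. Of the 21 T cell receptor and coreceptor genes, 16 rose in both comparisons, and the interaction was called for 19, each with the more positive difference in the knock-out mice. Cd3g rose by 2.22 ± 0.22 in the recipients and 3.94 ± 0.24 in the knock-out mice, an interaction of -1.73 ± 0.32 (adjusted p = 0.000807). Cd2 showed 0.69 ± 0.15 and 3.06 ± 0.17 (interaction -2.37 ± 0.23, adjusted p = 6.9e-06), and its call between the recipients had an adjusted p of 0.0597 without wild-type graft replicate 1. Il7r, the interleukin-7 receptor, differed by 0.05 ± 0.19 between the recipients and rose by 2.66 ± 0.20 in the knock-out mice (interaction -2.61 ± 0.27, adjusted p = 9.88e-06). Of the 16 early B cell genes, which include Il7r, 12 rose and 1 fell in the knock-out mice. Their interaction was called negative for 13 and positive for 1.

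A positive interaction was called for 17 of 21 monocyte genes and 5 of 10 basophil and mast cell genes. For neutrophils it was called in 19 of 19 receptors and mediators, 16 of 20 secondary and tertiary and 9 of 11 primary granule genes. In the knock-out mice 18, 17 and 9 genes of these neutrophil lists fell. Over all genes, 19.0% had a called interaction in either direction. S100a4 rose by 1.48 ± 0.15 between the recipients against 0.07 ± 0.16 in the knock-out mice (interaction 1.41 ± 0.21, adjusted p = 0.000128), and Fcgr1 rose by 1.14 ± 0.18 against a fall of 0.72 ± 0.19 (interaction 1.86 ± 0.26, adjusted p = 7.32e-05). Mcpt8 had an interaction of 1.93 ± 0.44 (adjusted p = 0.00398). Igha, the IgA heavy chain, fell by 2.74 ± 0.31 in the knock-out mice and differed by 0.15 ± 0.29 between the recipients (interaction 2.89 ± 0.42, adjusted p = 8.98e-05). For Vcam1 the values were -1.94 ± 0.11 and -1.81 ± 0.11, and for Cdk1 -1.02 ± 0.16 and -0.50 ± 0.17, with interactions that were not called (adjusted p of 0.645 and 0.139). Of the 20 called genes of the 4 red cell lists that fell between the recipients, 1 also fell in the knock-out mice, Alas1, the housekeeping form of the first enzyme of heme synthesis (by 0.90 ± 0.13, adjusted p = 1.84e-05). Its call between the recipients (-0.40 ± 0.12, adjusted p = 0.0498) was lost without knock-out graft replicate 1 (0.0993) or 2 (0.163) or wild-type graft replicate 1 (0.0964), 2 (0.161) or 3 (0.108). Over these 20 the median difference in the knock-out mice was -0.15, and 7 had called interactions, all negative, among them Ermap (-1.52 ± 0.30 and 0.19 ± 0.32, interaction -1.71 ± 0.43, adjusted p = 0.00823) and Car1 (interaction -1.64 ± 0.30, adjusted p = 0.000616). The batches differ in normalization and in the stated RNA input, taken as 500 ng and 1000 ng, which bears on sizes set across them.

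**Figure D4:**
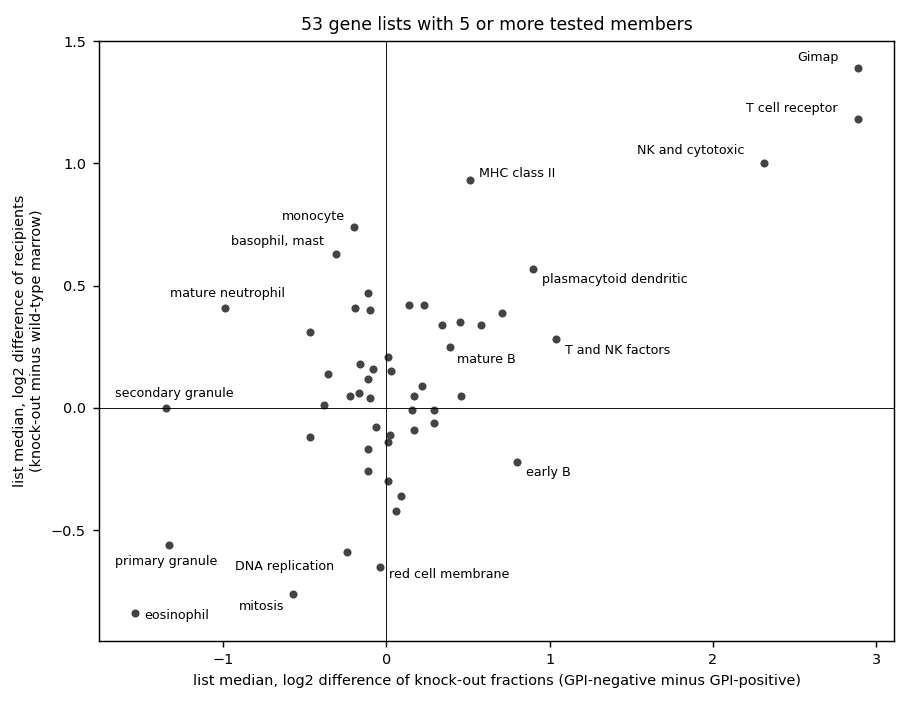
Median log2 difference of each of 53 gene lists with 5 or more tested members, between the recipients (vertical) and between the fractions of knock-out mice (horizontal). T cell genes are at 1.18 between the recipients and 2.89 in the knock-out mice, at the upper right with the Gimap list. In the same order, monocyte genes are at 0.74 and -0.20, and secondary granule genes are at 0.00 and -1.35.

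Recipients of wild-type marrow differed from untransplanted wild-type mice, with which they share the sorted fraction, in 120 genes (0.842%), 64 of them higher and 56 lower. That comparison uses the same 3 arrays, so its values are only set beside the others. Without wild-type graft replicate 1 the count was 21, without replicate 2 it was 55, and without replicate 3 it was 77. C1qa was lower in wild-type grafts than in untransplanted mice by 0.86 (adjusted p = 0.0141) and in knock-out grafts by 2.08. Tlr1 and Ptprc were lower in wild-type grafts by 0.62 and 0.50 (adjusted p = 0.034 and 0.0356). In knock-out grafts they differed from untransplanted mice by 0.32 and -0.07, without a call (adjusted p = 0.11 and 0.767). Ms4a3 was higher in wild-type grafts by 0.63 (adjusted p = 0.0312), and Fos by 1.90 (adjusted p = 0.0268). The basophil gene Fcer1a was higher by 1.30 (adjusted p = 0.0385), and Cpa3 differed by 0.73 without a call (adjusted p = 0.0501). The primary granule list mean was 6.57 to 6.93 in knock-out grafts, 7.12 to 7.29 in wild-type grafts and 6.73 to 7.01 in untransplanted mice.

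Control probe sets of the arrays overlapped between the groups. The hybridisation controls averaged 6.42 ± 0.20 (SD, n = 4) in knock-out and 6.42 ± 0.18 (n = 3) in wild-type grafts, and the ratios of 3 prime to 5 prime probe sets of Gapdh and beta-actin gave exact two-sided permutation p of 0.8 and 0.2, where 35 arrangements allow 0.0286 at best. Correlations between arrays of a group lay at 0.973 to 0.985 in knock-out and 0.974 to 0.985 in wild-type grafts. The leukocyte gene Ptprc was bright on all 7 arrays but did not overlap, at 8.80 to 9.25 in knock-out and 8.46 to 8.63 in wild-type grafts. It rose by 0.44 ± 0.11 (adjusted p = 0.0183), a call lost without knock-out graft replicate 2 (0.0733) or 4 (0.0552) or wild-type graft replicate 3 (0.0979). The mean over 15 stroma and endothelial genes stayed at 0.98 to 1.15. The number of arrays limits the precision, with a median SE of 0.144 between the recipients.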

How the data were processed

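RNA of sorted marrow cells was measured on 17 Affymetrix arrays of 45101 probe sets. The authors' deposited table holds log10-like values that had been quantile-normalized within each batch, as its sorted values, identical from array to array, show. The sources used here name neither the log base, which was read from spiked control transcripts, nor the background correction or probe summary. Dividing by the log10 of 2 gave log2 levels. The submitters' processing notes name GCOS, the array maker's software, without a role.

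After removal of 64 controls, 34945 probe sets had 1 gene symbol, 932 several and 9160 none here. Probe sets at or above the 40th percentile on at least 3 arrays were kept (32426), and the brightest with 1 symbol stood for a gene (14245 genes). Arrays were centred on a common median for the fit. One limma 3.58.1 fit (R 4.3.3, eBayes with an intensity trend) over 17 arrays and 5 groups, with 12 residual degrees of freedom, gave all contrasts, and Benjamini-Hochberg adjustment ran over all genes at a threshold of 0.05. The script was tested on simulated data. A count of list members has no test of its own, and is read beside the share of all genes.

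The comparison, gene lists and motifs were chosen with earlier results of these data known. Genes are named by rule: the 12 largest called rises and falls that do not overlap and are bright (60th percentile), up to 5 called members of each list (the 2 smallest p where none is called), Piga, sort antigens, sex-linked genes and members called against their list, the 6 largest called interactions and the 5 brightest called genes per direction. Fos, Igk, Cd4 and Ciita were named after their values were seen. Same-numbered arrays of the recipient groups had deviations correlated at -0.18, 0.0318 and -0.00208. The numbers were not taken to pair samples, although so few arrays cannot decide it. Alternatives covered the arrays fitted, the filter, probe set averaging, cyclic loess, a floor, the trend, array weights, a replicate block and leaving out each array. Promoter letters are RefSeq's (GRCm38.p6).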

Additional observations from a re-analysis of the deposited data

Results flagged for a closer look

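Among 258 sets of 4 knock-out graft values (named genes and list means), 11 had a sample far from the other 3 by Dixon's criterion, which chance gives in about 1 of 20 sets. Knock-out graft replicate 1 stood high for Alad (4.87), Cdk1 (5.57) and Tfrc (6.69) and for the mean of mitosis genes (4.75) and of respiratory chain genes (6.69), and low for the mean of secondary and tertiary granule genes (8.97) and of cell cycle inhibitors (5.72). Replicate 2 stood low for Ebf1 (3.67), replicate 3 high for the mean of plasma cell genes (4.21), and replicate 4 high for Cd14 (3.57) and for the mean of MHC class I genes (6.06).

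The difference between the recipients itself differed from that between the fractions of knock-out mice for 2708 genes. The 6 largest such differences among the called genes considered were Igha (2.89), Cxcl2 (2.74), Il7r (-2.61), Thbs1 (2.43), Cd3e (-2.38) and Cd2 (-2.37). Cxcl2, a neutrophil-attracting chemokine, and Thbs1, thrombospondin, were not called between the recipients (1.17 ± 0.38, adjusted p = 0.0639, and 1.12 ± 0.34, adjusted p = 0.0528), and wild-type graft replicate 1 lay high for both, at 4.35 and 4.72.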

How the results depend on the processing

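The count of genes changed between the recipients was 680 without wild-type graft replicate 2 and 684 without replicate 3, with a range of 680 to 1311 over the 7 arrays left out, and 807 with a replicate block. Genes lower in knock-out grafts numbered 323 when the 7 recipient arrays were fitted alone, and 285 to 667 when single arrays were left out. Genes changed in wild-type grafts against untransplanted mice numbered 59 without the intensity trend, 353 with array weights and 45 with a replicate block, and 21 to 168 when single arrays were left out. Under the other settings these counts, the genes higher in knock-out grafts and the interaction stayed within 1.5 times the values given. Of 174 called genes named by rule or in the text, 136 kept the call under every setting that keeps all 7 arrays and 110 under every setting. With the mean of its probe sets Fkbp11 turned to 0.06. The titles do not say whether replicate numbers pair the samples, and so few arrays cannot decide it, so the block is given as an alternative. Dim genes near the floor, Piga in knock-out grafts above all, have only approximate folds, and dim markers may be missed.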

Other observations

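A few other genes with large differences belong to no list. Kbtbd11 measured 4.46 to 5.23 in knock-out grafts and 2.60 to 2.81 in wild-type grafts (2.24 ± 0.16, adjusted p = 2.04e-08), but its 3 other probe sets differed by -0.04, 0.72 and 0.30. Ms4a4b, a membrane protein of T cells, rose 6.61-fold, from 3.88 to 4.46 on the wild-type graft arrays to 6.10 to 7.67. The other probe set of Ms4a4b differed by 0.57. C1qtnf12 fell by 1.28 ± 0.17 (adjusted p = 6.37e-05), with its other 3 probe sets at -1.25, -0.72 and -0.29, and Ctse, a protease of red cell precursors and other cells, fell by 1.29 ± 0.26 while its other probe set differed by 0.35. The tubulin gene Tuba4a, among the brightest called genes, fell by 0.52 ± 0.10 (adjusted p = 0.00188). Igk, an immunoglobulin light chain gene named after its values were seen, measured 3.56, 3.91, 5.37 and 3.74 in knock-out and 4.86, 8.02 and 5.14 in wild-type grafts. Its fall of 1.86 ± 0.53 (adjusted p = 0.0343) rested on wild-type graft replicate 2, without which the difference was -0.86 (adjusted p = 0.261), and the call was also lost without knock-out graft replicate 1 (0.0762), 2 (0.0882) or 4 (0.0963). Of its other probe sets, 1 differed in the opposite direction (0.19).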
